A study of Homo sapiens with 3 samples.

Results

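Gene IDs of 3 fibroblast growth factor homologous factors were followed in peak lists of RNA crosslinked to CSTF2tau: FGF12 (ENSG00000114279), FGF13 (ENSG00000129682) and FGF14 (ENSG00000102466). They were chosen by name, with their listed peaks and reads known and with FGF14 known to be missing from replicate 3. Presence and level are therefore given as descriptions. Of the 3 gene IDs, 2 were among the 13356 with a listed peak, and FGF13 had none in any replicate. The cells were BE(2)-C, an established human neuroblastoma line labelled wild type and grown in serum-containing medium, in 1 group of 3 biological replicates without treatment. Protein and RNA were crosslinked with ultraviolet light in living cells, the RNA was partly digested, and complexes were recovered with an antibody to CSTF2tau (a method called sCLIP). All samples are immunoprecipitates, so a listed peak could not be set here against background recovery or transcript abundance. In such lists a smaller amount of a transcript and weaker binding to it cannot be told apart.

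FGF homologous factors share the fold of secreted fibroblast growth factors but stay inside the cell. They bind the cytoplasmic tails of voltage-gated sodium channels in neurons and alter how readily the channels open again after firing, and mutations in FGF14 cause an inherited ataxia. The family's genes use alternative first exons, which give proteins with different amino-terminal ends. CSTF2tau, encoded by a paralogue of CSTF2, is the part of the cleavage stimulation factor that contacts GU-rich RNA downstream of the site where a pre-mRNA is cut before polyadenylation.

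FGF14 was among the most heavily listed transcripts of replicates 1 and 2, and its peaks lay in the upstream part of a 611 kb interval of chromosome 13. It is the member on which the values below turn, so the RefSeq sequence around its most upstream start is shown first, with the 50 transcribed bases in capitals after the 250 bases before the start. The window is chr13:102402394-102402693 on the minus strand in GRCh38.p14. This is not the build of the peak lists (hg19), and the 2 sets of coordinates were not set against each other.
FGF14 most upstream start: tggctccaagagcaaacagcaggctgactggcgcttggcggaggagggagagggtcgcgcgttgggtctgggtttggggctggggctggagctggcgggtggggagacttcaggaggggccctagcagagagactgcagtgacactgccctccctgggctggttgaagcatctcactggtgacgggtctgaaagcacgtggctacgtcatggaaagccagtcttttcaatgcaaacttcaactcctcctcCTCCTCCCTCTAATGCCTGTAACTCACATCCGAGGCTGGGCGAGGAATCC
RefSeq gives 4 start windows for FGF14. On both strands, this one held 0 matches to the GU-rich word TGTGT, which 39.4% of 35116 start windows of the same length contained, and 0 matches to the polyadenylation signal AATAAA, which 17.4% contained. These counts describe the letters of this window only.

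The lists held 105203, 18346 and 78761 peaks in replicates 1, 2 and 3. The name of each peak ends in a whole number of at least 3, taken as its number of reads, which gives 736059, 108434 and 387784 listed reads. No source states what this number counts, and every read value rests on this reading. These totals are not sequencing depth, and reads that formed no listed peak cannot be seen, so a gene ID without a peak may still have had reads. Of nuclear reads, 48.8%, 50.6% and 63.2% lay on the minus strand, where all peaks of FGF12 and FGF14 lie, so shares are also given of minus-strand reads.

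FGF14 had 374 peaks with 3259 reads in replicate 1, which is 0.443% of that list's reads (95% exact interval 0.428 to 0.458%). In replicate 2 it had 86 peaks with 562 reads, or 0.518% (0.476 to 0.563%). Its ID had no peak in replicate 3. The mean over the 2 replicates that list it was 0.481% ± 0.0534 (SD, n = 2), and their shares differed 1.17-fold. Of minus-strand reads, FGF14 took 0.910% and 1.05%. By reads it ranked 8 among 11152 gene IDs in replicate 1 and 12 among 5173 in replicate 2.

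FGF12 had few listed reads, with rank 7224 among the 10788 gene IDs of replicate 3. It had no peak in replicates 1 and 2 and 2 peaks in replicate 3, with 7 reads together, or 0.00181% of the reads (95% exact interval 0.000726 to 0.00372%). The peaks were 60 nt with 3 reads at chr3:192173287-192173346 and 66 nt with 4 reads at chr3:192203418-192203483, both on the minus strand and 30071 nt apart. Each stood at or next to the lowest number of reads that any list contains. A listing in replicate 3 alone was common: 1754 of its 10788 gene IDs (16.3%) had no peak in replicates 1 and 2, as had 95 of the 450 (21.1%) with 7 reads there. The presence of FGF12 in 1 list is therefore no result about FGF12.

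**Figure D1:**
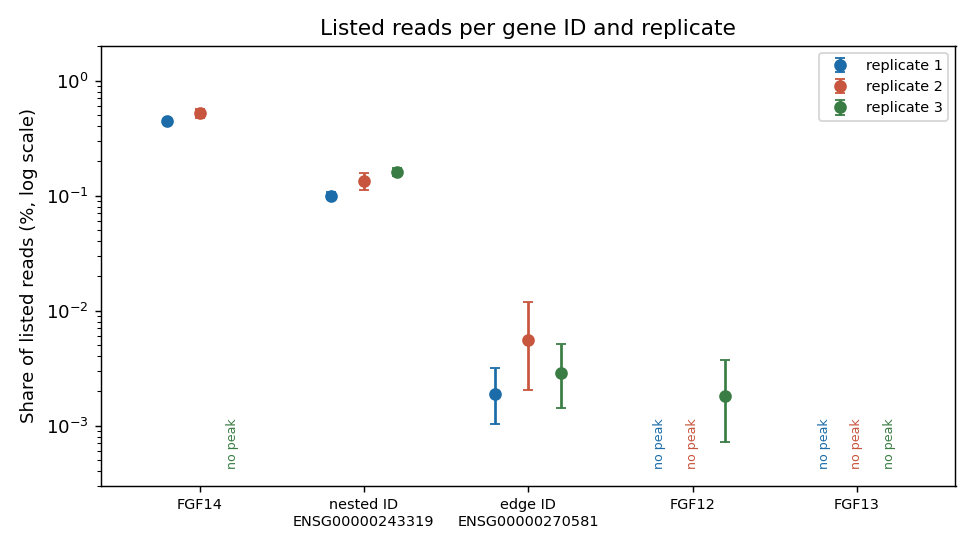
Share of listed reads in percent (log scale) for the 3 member gene IDs and for 2 other gene IDs on the same strand in or beside the FGF14 interval, by replicate; bars are 95% exact intervals and cover counting error only. FGF14 lies near 0.5% in replicates 1 and 2 and has no peak in replicate 3, where the nested ID reaches 0.160%.

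The peaks of FGF14 ran from chr13:102442770 to chr13:103054008 on the minus strand (hg19), so the high coordinate is the 5' edge. In replicate 1 they covered 611 kb and in replicate 2, with fewer peaks, 542 kb. No peak lay on the opposite strand of this interval in any replicate. The median FGF14 peak was 73 nt wide in replicate 1 and 63 nt in replicate 2, against 79 and 72 nt over all peaks of those lists. They were slightly fuller than usual: the median was 7 and 5 reads, against 5 and 4 over all peaks. In replicate 1, 7.22% of FGF14 peaks had 20 reads or more, against 3.57% of all peaks, while in replicate 2 the percentages were 2.33% and 2.10%.

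FGF14 reads were concentrated in the upstream part of the span. Divided into 10 equal bins from the 5' edge, bins 1 to 5 held 3068 of 3259 reads in replicate 1, or 94.1% (95% exact interval 93.3 to 94.9%). In replicate 2 they held 538 of 562 reads, or 95.7% (93.7 to 97.2%). The remaining 306 kb downstream had 28 peaks with 191 reads in replicate 1 and 5 peaks with 24 reads in replicate 2. The intervals of the replicates overlap, so at this scale the distributions agree within counting error.

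Within the upstream part the replicates differed. In replicate 1 the percentage of FGF14 reads was 22.9% in bin 1, 30% in bin 2 and 19.4% in bin 3, then fell to 12.8% and 9.11% in bins 4 and 5. Replicate 2 had 28.8%, 8.19%, 20.1%, 5.69% and 32.9% in the same bins. Its highest bin was bin 5 (95% exact interval 29.0 to 37.0%), which in replicate 1 had an interval of 8.15 to 10.2%, and its bin 2 (6.05 to 10.8%) lay far below that of replicate 1 (28.4 to 31.6%). Bins 6 to 10 stayed at or below 2.67% in both. The median FGF14 read lay 120 kb from the 5' edge in replicate 1 and 150 kb in replicate 2.

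**Figure D2:**
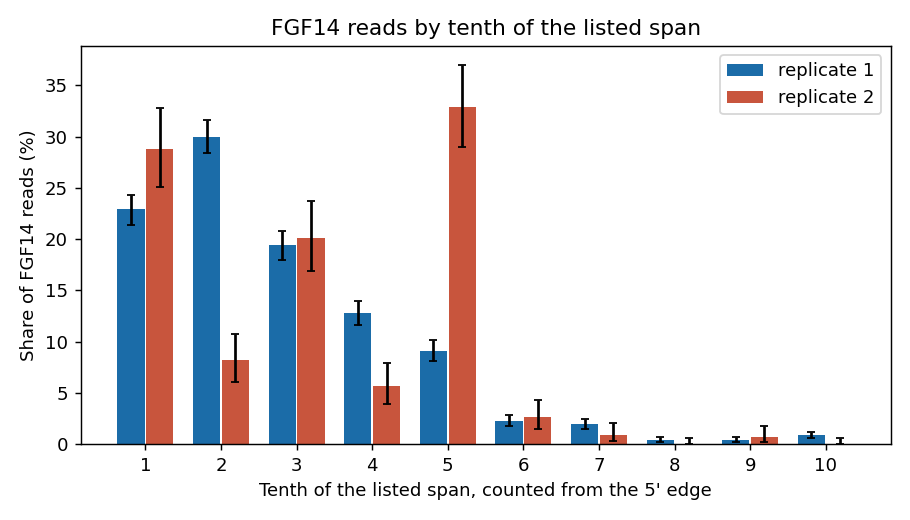
Percent of the FGF14 reads of each replicate in 10 equal bins of the listed span, bin 1 at the 5' edge; bars are 95% exact intervals for counting error. Both replicates have nearly all reads in bins 1 to 5, with the highest bar in bin 2 for replicate 1 and in bin 5 for replicate 2.

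Part of the downstream end was empty of peaks. The median gap between neighbouring FGF14 peaks was 0.53 kb in replicate 1 and 1.3 kb in replicate 2. The longest gap was 88.4 kb in replicate 1, starting 457 kb from the 5' edge, and 164 kb in replicate 2, starting 377 kb from it.

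CSTF2tau belongs to a factor that acts at the 3' ends of genes, and the ends of the listed span were compared for every gene ID with enough data. Reads in the last 10% of the span were set against reads in the first 10%, over gene IDs with at least 5 separate loci and at least 10 reads at both ends together. In replicate 1, 28 FGF14 reads lay in the downstream window and 745 in the upstream one, and in replicate 2 these were 0 and 162. The downstream window lies 550 to 611 kb from the 5' edge. Peaks of replicate 2 end within 542 kb of it, so that 0 follows from the span that replicate 1 sets. Leaving out replicate 1, so that replicate 2 sets the span, gave 4 against 162 reads. Summed, 28 against 907 reads gave a ratio of -4.99 on the log2 scale (two-sided exact binomial test with adjusted p = 1.4e-225 over 6382 gene IDs), in the same direction in both replicates that list it. Calls required an adjusted p under 0.05 and the same direction in each replicate with reads at the ends; by this rule 14.1% of all gene IDs were called at the 5' end and 18.1% at the 3' end. FGF14 was the 1 member that could be tested, since FGF12 had 2 loci and FGF13 none. The test treats reads as independent. Counted in peaks, 6 downstream stood against 111 upstream (-4.10 on the log2 scale, adjusted p = 4.8e-24 by the same exact test). That count pools the peaks of both replicates and treats neighbouring peaks as independent. Neither p measures the spread between replicates. With the single outermost locus at each end in place of the windows, 5 against 6 reads gave -0.24 (adjusted p = 1, exact test), so that choice of ends gives no call. Both ends are edges of the listed peaks and need not be ends of the transcript.

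FGF14 was set beside the minus-strand gene IDs whose listed span was 306 to 1220 kb. It had the share of rank 2 of 191 such IDs in replicate 1 and of rank 4 in replicate 2, where the medians were 0.0135% and 0.00738%, and its 431 loci were rank 3, against a median of 62. An excess at the 5' end was common in this class: of 177 IDs tested, 40.7% were called at the 5' end and 14.1% at the 3' end. The median log2 ratio was -1.10, against 0.18 over all tested gene IDs, and FGF14 was 7th from the 5' extreme. A 5' excess was thus shared by many gene IDs of similar span.

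**Figure D3:**
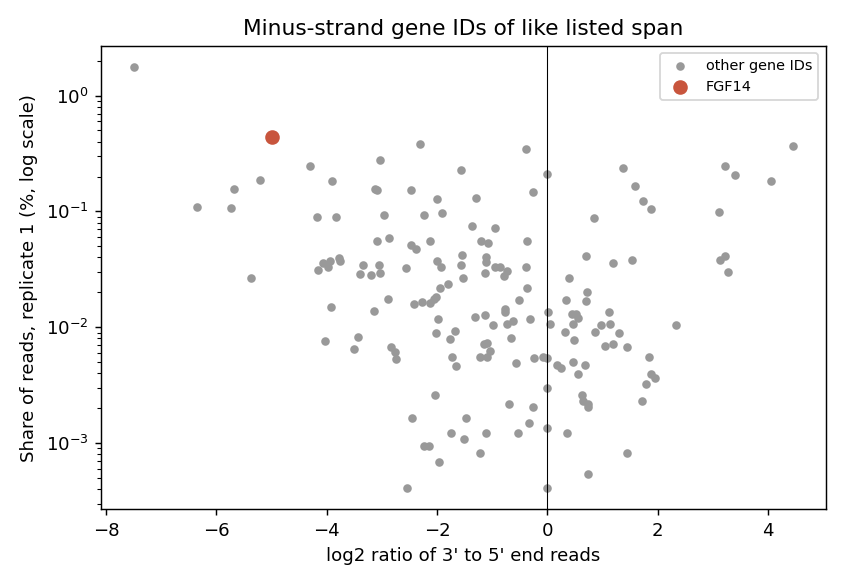
Share of reads in replicate 1 (percent, log scale, vertical axis) against the log2 ratio of 3' to 5' end reads (horizontal axis) for 174 minus-strand gene IDs with a listed span of 306 to 1220 kb and reads in replicate 1. FGF14, at -4.99 and 0.443%, lies at the upper left, and points spread to both sides of 0.

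The gene IDs whose reads were distributed most like those of FGF14 were found by Pearson's r over the percentages of reads in 10 bins of replicates 1 and 2 (20 values). Among 549 candidates with at least 200 reads in all and 30 in each of these replicates, the highest was ENSG00000198911 (chr22:42229289-42302836, plus strand) with r = 0.772. The next was ENSG00000172159 (chr9:85861810-86152427, minus strand) with r = 0.756, and the median candidate had r = -0.0164. Their spans of 73.5 and 291 kb are shorter than that of FGF14. The bins of 1 replicate share a library and sum to a fixed total, so r is a description.

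The highest single peaks of FGF14 differed between replicates 1 and 2. In replicate 1 the first was 98 nt long with 51 reads at chr13:102941372-102941469, which lies 113 kb from the 5' edge. The next had 45 reads at chr13:102955099-102955280 and 42 reads at chr13:102934112-102934188. In replicate 2 the highest peak had 26 reads at chr13:103015906-103016001, and the next had 20 reads in a short 26 nt peak at chr13:102805898-102805923. Neither of these last positions had an FGF14 peak in replicate 1, although by mean share over both replicates they were the loci of rank 1 and 2 (0.0120% and 0.00922%). At the first, 38.1 kb from the 5' edge, replicate 3 had a peak of 11 reads under ENSG00000243319, a nested gene ID described below. Because the list of replicate 2 has fewer reads, 1 read weighs more in its shares.

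Few positions of FGF14 came back. Overlapping peaks of replicates 1 and 2 merged into 431 loci, of which 26 (6.03%) were in both, 345 in replicate 1 alone and 60 in replicate 2 alone. Of the peaks of replicate 1, 29 of 374 (7.75%, 95% exact interval 5.25 to 10.9%) overlapped a peak of replicate 2 by at least 1 nt; over all gene IDs listed in both it was 6.61%. Of the peaks of replicate 2, 26 of 86 (30.2%, 20.8 to 41.1%) overlapped a peak of replicate 1, against 25.5% over all. Both percentages for all gene IDs lie inside the FGF14 intervals.

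The 26 recurrent loci held 8.47% of the FGF14 reads of replicate 1 and 35.6% of those of replicate 2, and all lay between 5.60 and 267 kb from the 5' edge. Those with the highest mean share were chr13:102981934-102982130 with 13 and 18 reads in replicates 1 and 2, chr13:102880233-102880306 with 5 and 19, and chr13:102913195-102913309 with 17 and 16. Other recurrent loci had unequal reads in the 2 lists, such as chr13:102885815-102885943 with 23 and 5 reads and chr13:102786818-102786895 with 3 and 7. The downstream end had no recurrent locus.

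Replicate 3 lists no peak under FGF14, and the same strand of the interval was searched for peaks of other gene IDs. It held 61 peaks with 619 reads, all under ENSG00000243319, a gene ID nested in the upstream part of FGF14 at chr13:102945447-103046374. That extent is set by replicate 1 (101 kb). The peaks of this ID spanned 35.7 kb in replicate 2 and 66.4 kb in replicate 3. A further gene ID, ENSG00000270581, had 1 peak at the 5' edge in each replicate. No other part of the interval had a listed peak in replicate 3, and whether RNA of FGF14 outside the nested ID was bound there cannot be read from the list. RefSeq's table for GRCh38.p14 places the lncRNA genes LOC107984615, FGF14-IT1, FGF14-AS1 and FGF14-AS2 inside FGF14, along with pseudogenes and miRNA genes. The lists do not pair IDs with names, so ENSG00000243319 and ENSG00000270581 are given as listed.

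**Figure D4:**
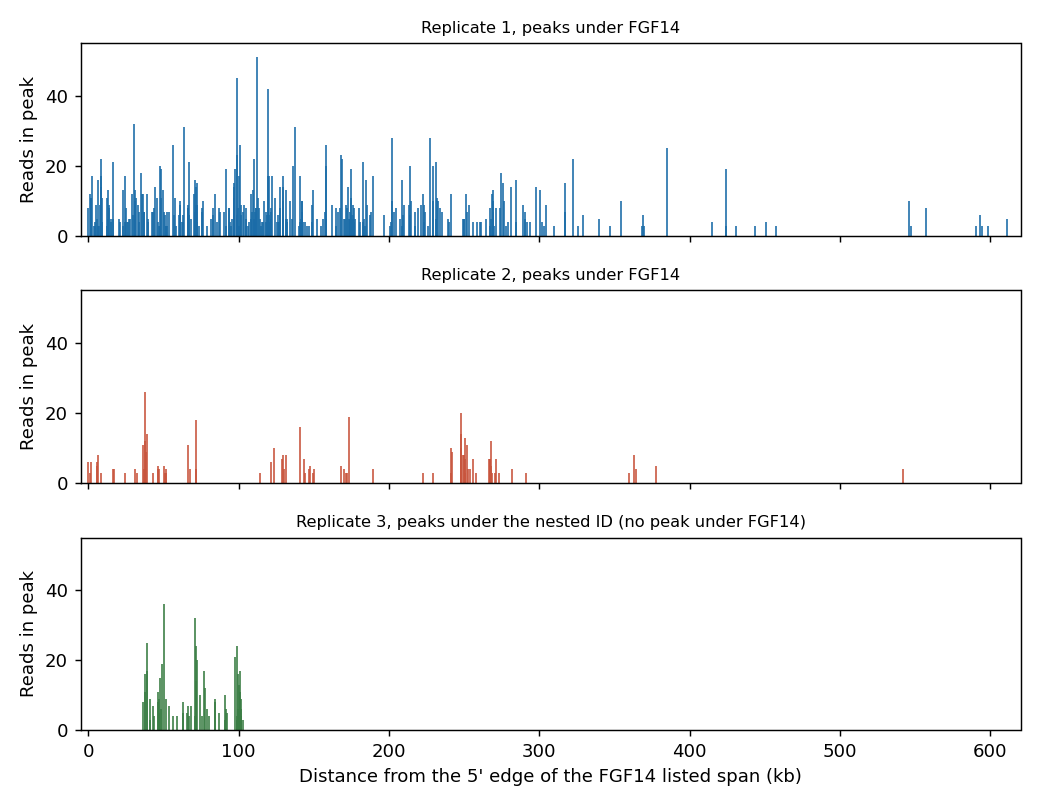
Reads in each listed peak against its distance in kb from the 5' edge of the FGF14 span, for FGF14 in replicates 1 and 2 and for the nested ID in replicate 3. Peaks crowd the left side in replicates 1 and 2. Those of replicate 3 lie within the stretch of the nested ID and span 66.4 kb of its 101 kb.

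FGF14 was chosen with this absence known, so the percentages of gene IDs with such an absence are given as a description only. Of 4723 gene IDs listed in replicates 1 and 2, 6.54% had no peak in replicate 3, and of the 167 with at least 100 reads in each of those replicates, 2.40% (4 gene IDs, FGF14 among them) had none. The gene ID versions also differed between the lists. All 4640 gene IDs shared by replicates 2 and 3 carried the same version number, whereas 53.5% of 4723 did so between replicates 1 and 2 and 56.4% of 8808 between replicates 1 and 3. FGF14 was listed as version 1 in replicate 1 and version 11 in replicate 2, and the nested ID as version 3 in replicate 1 and version 2 in replicates 2 and 3. The part of these versions in the missing FGF14 ID was not tested.

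The nested ID was listed in every replicate and gives a comparison that includes replicate 3, though its peaks spanned unlike lengths (101, 35.7 and 66.4 kb). It had 79 peaks with 736 reads in replicate 1 (0.1%, 95% exact interval 0.0929 to 0.107%), 18 peaks with 144 reads in replicate 2 (0.133%, 0.112 to 0.156%) and 61 peaks with 619 reads in replicate 3 (0.160%, 0.147 to 0.173%). The mean was 0.131% ± 0.0299 (SD, n = 3). Replicate 3 was highest and replicate 1 lowest, 1.60-fold apart, and their intervals do not overlap. Of minus-strand reads the shares were 0.206%, 0.270% and 0.255%, so replicate 2 was then the highest and the range was 1.31-fold.

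These peaks are not independent of those of FGF14. In replicate 2, all 18 peaks of the nested ID had the coordinates and reads of an FGF14 peak. In replicate 1, all 79 overlapped FGF14 peaks, which held 965 reads against 736, but 5 had the same coordinates. The lists thus give the same stretch of RNA under both IDs, with other borders and fewer reads under the nested ID in replicate 1.

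The stretch that the nested ID covers in replicates 2 and 3, chr13:102951082-103017613 (66.5 kb), was therefore compared with each position taken once, from whichever ID had more reads at it. It held 870 reads in replicate 1, 144 in replicate 2 and 619 in replicate 3. These are 0.118% (95% exact interval 0.110 to 0.126%), 0.133% (0.112 to 0.156%) and 0.160% (0.147 to 0.173%) of the listed reads, a mean of 0.137% ± 0.0210 (SD, n = 3). Of minus-strand reads the shares were 0.243%, 0.270% and 0.255%, a mean of 0.256% ± 0.0135 (SD, n = 3) and a range of 1.11-fold. This closeness rests on taking replicate 1 from its FGF14 peaks and replicate 3 from the nested ID. Under the nested ID alone the stretch had 494, 144 and 619 reads, or 0.0671%, 0.133% and 0.160% of the listed reads, a range of 2.38-fold with replicate 1 the lowest. This stretch was picked with the lists already in view.

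Positions inside the nested ID recurred in all replicates at 6 loci. Of 171 loci there, 6 (3.51%) occurred in all 3 replicates, 31 in 2 of them and 134 in only 1. Over the whole lists, 0.889% of 172167 loci occurred in all 3. The 2 percentages are not of like sets. Loci here combine peaks of FGF14 and the nested ID, while the whole lists include gene IDs that 1 or more replicates lack. The loci here also cover 101 kb, of which the peaks of replicate 3 span 66.4 kb. The locus with the most reads was 419 nt long at chr13:102981934-102982352, with 47, 22 and 51 reads in replicates 1, 2 and 3. These were 0.00639%, 0.0203% and 0.0132% of the reads (mean 0.0133% ± 0.00695, SD, n = 3). It was the widest of the 6 and joins several peaks in each replicate, the fullest with 14, 18 and 24 reads. The next, chr13:103014502-103014713, had 12, 14 and 42 reads, and chr13:103003414-103003604 had 7, 5 and 36, so both stood highest in read number in replicate 3. At chr13:103017455-103017613 the reads were 12, 11 and 8, and at chr13:102987340-102987472 they were 8, 11 and 7. The lowest, chr13:103002424-103002526, had 3, 4 and 9. By share, replicate 1 was the lowest at all 6 loci. A listed peak has at least 3 reads, which is 0.000408% of the reads in replicate 1 and 0.00277% in replicate 2. Lower shares can therefore be listed in replicate 1, and the part of this floor was not tested.

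**Figure D5:**
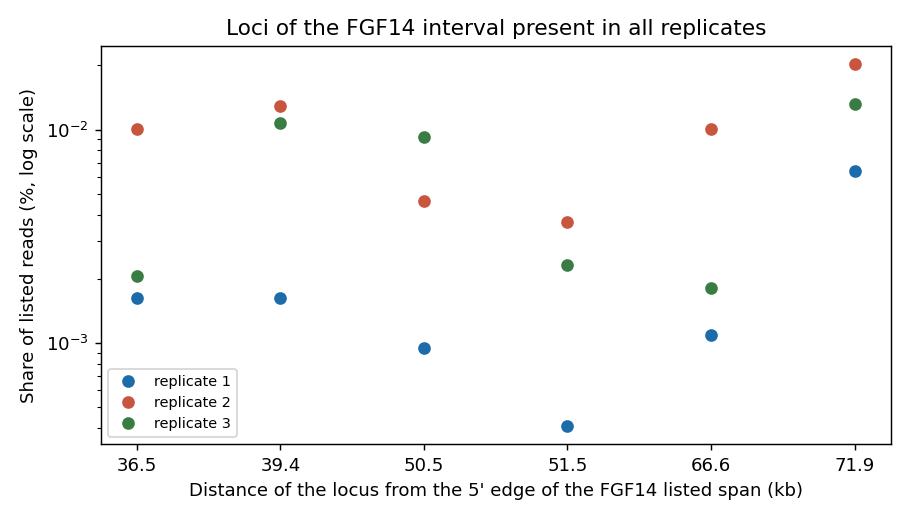
Share of listed reads (percent, log scale) at the 6 loci of the FGF14 interval present in all 3 replicates, ordered by distance in kb from the 5' edge and evenly spaced, not to scale. Replicate 1, whose list has the most reads and so admits the lowest shares, is lowest at each locus. The locus at 71.9 kb is highest in every replicate, and it is also the widest and joins several peaks.

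Under the nested ID, 11 of 18 peaks of replicate 2 (61.1%, 95% exact interval 35.7 to 82.7%) overlapped a peak of replicate 3, against 19.9% over all gene IDs listed in both. Of the peaks of replicate 1, 25 of 79 (31.6%, 21.6 to 43.1%) overlapped replicate 3, against 12.9% over all. Between replicates 1 and 2 no such excess was seen: 8 of 79 peaks of replicate 1 (10.1%, 4.47 to 19%) overlapped replicate 2, against 6.61% over all, and 5 of 18 peaks of replicate 2 (27.8%, 9.69 to 53.5%) overlapped replicate 1, against 25.5%. In both, the percentage over all gene IDs lies inside the interval. The highest peak of replicate 3, with 36 reads at chr13:103003414-103003555, overlapped a peak of 5 reads in replicate 2. Peaks here had a median of 8 reads in replicate 3, against 4 over the whole list, and fuller peaks were shared more often in all gene IDs (median 6 reads when shared against 4 when not, for replicate 2 in replicate 3). The part of peak fullness in this overlap was not tested.

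At the 5' edge of the FGF14 interval, ENSG00000270581 had 1 minus-strand peak in each replicate. It had 14 reads at chr13:103054099-103054194 in replicate 1, 6 reads at chr13:103053933-103054012 in replicate 2 and 11 reads at chr13:103054101-103054184 in replicate 3. The shares were 0.00190%, 0.00553% and 0.00284%, a mean of 0.00342% ± 0.00189 (SD, n = 3). The peaks of replicates 1 and 3 overlap each other, and that of replicate 2 lies downstream of both and overlaps the outermost FGF14 peak of that replicate.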

How the data were processed

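The authors deposited 1 peak list per replicate, with 8 columns and no header. Per the submitters' processing notes the build was hg19, with FastQC, SAMtools, STAR and bedtools named without roles; for the peak caller and annotation the entry is "not given in the sources used here". Deposited p-values, 1 per peak and computed by the authors, lie below 0.05. The peak name, another deposited field, joins gene ID, version, running number and a number read as reads; against the p-values it had a Spearman rho of -0.988, -0.973 and -0.964 across peaks in replicates 1, 2 and 3.

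The members and lists were chosen with earlier results of these data known. Named loci were those in every replicate that lists a member and the 5 with the highest mean share; other gene IDs named are those inside the FGF14 interval or at its edge and the 2 most alike in read distribution. Overlapping same-strand peaks were merged into loci. Intervals are exact Clopper-Pearson intervals for counting error only, since reads of 1 peak need not be independent. End ratios add 0.5 reads to each end and use exact binomial tests with Benjamini-Hochberg adjustment. The code was run on simulated ends with reads drawn independently, as the test assumes. That run says nothing about reads clustered in peaks. Starts were made 1-based. Computations used Python 3.11.15, pandas 2.3.3 and SciPy 1.17.1. Of the gene IDs, 0 matched the reference table, so the planned lists of other FGF family genes, sodium channels and neuroblastoma markers were not analysed here; members carry the symbols under which they were named. No hg19 sequence was used here.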

Additional observations from a re-analysis of the deposited data

How the results depend on the processing

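Of 44 alternative values, 32 stayed within 1 SD, on the same side of the threshold or within 1.5 times for counts. Another 11 moved, 1 lost its call and none changed sign. Some of the 11 had to move, since shares of minus-strand reads have a smaller denominator, and shares of peaks count another unit. Some of the 32 could not have moved. Leaving out a replicate cannot shift these mean shares by as much as 1 SD. FGF14 values without replicate 3 repeat the main ones, since that list has no FGF14 peak. The mean share of FGF14 was 0.982% of minus-strand reads, 0.412% of peaks and 0.562% when only peaks with p up to the list's median were kept, against 0.481%; leaving out a replicate gave 0.443 to 0.518%. For the nested ID these were 0.243%, 0.0836% and 0.169%, against 0.131%, with 0.0910% without peaks under several IDs, 0.163% with each position of its interval once, and 0.116 to 0.146% without a replicate. The common stretch held 0.256% of minus-strand reads against 0.137% of all, and 0.125 to 0.146% without a replicate. With the outermost locus the FGF14 end ratio was -0.24 and 0 members were called in place of 1; without a replicate it ranged from -5.17 to -4.71. With that p limit, 19 in place of 29 FGF14 clusters of replicate 1 were found in replicate 2. Over all gene IDs, 900 were called at the 5' end and 1158 at the 3' end; these were 59 and 145 with the outermost locus, 225 and 218 by peaks, 590 and 734 with the p limit, and 540 and 617 without replicate 1. Overlap between replicates 1 and 2 has no value without either. The common stretch and its alternatives were added after the data had been seen. Listed peaks start at 3 reads, which limits what can be said of FGF12 and FGF13.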

Other observations

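The running numbers in the peak names rose with the genome coordinate along FGF14 and had gaps. In replicate 1 they reached 580 with 374 peaks listed, so 35.5% had no listed peak, and in replicate 2 they reached 196 with 86 listed (56.1%). For the nested ID, 37.8%, 60.0% and 40.2% of the numbers were unlisted in replicates 1, 2 and 3.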
